A study of Homo sapiens with 24 samples.

Results

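Human HEK293T cells were treated with OSMI-2 or TMG, and the genes described here are those that encode the subunits of the mitochondrial respiratory chain in the nucleus. They were chosen by name alone, as every gene of the deposited tables whose symbol begins as a complex I (NDUFA, B, C, S or V), complex II (SDHA to SDHD), complex III (UQCR), complex IV (COX4 to COX8) or ATP synthase (ATP5) gene. The patterns matched 85 of 13236 genes. They use no measured value, but the members were chosen with earlier results of these data known. By role, 5 are core subunits of complex I that carry electrons, 30 are supernumerary subunits of complex I and 7 are its assembly factors (NDUFAF1 to NDUFAF7). A further 4 belong to complex II, 8 to complex III and 12 to complex IV. In ATP synthase, 6 were grouped with the F1 head and its stalk and 10 with the membrane part and peripheral stalk. ATP5O, which links the head to the peripheral stalk, was counted among the 6. The remaining 3 carry a matching symbol but are not subunits: ATP5S, ATP5SL and the antisense RNA NDUFA6-AS1. The complex IV group holds NDUFA4, first assigned to complex I and now counted as a subunit of complex IV, and COX7A2L, which helps complexes III and IV to associate. The tables merge COX6A1 with AL021546.6 and UQCR11 with MBD3, and list the readthrough transcripts NDUFC2-KCTD14 and ATP5J2-PTCD1 apart, so reads of these 4 entries cannot be assigned to 1 gene.

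Complexes I and II pass electrons from NADH and succinate to coenzyme Q, complex III passes them on to cytochrome c, and complex IV hands them to oxygen. Complexes I, III and IV pump protons across the inner mitochondrial membrane, and ATP synthase uses the returning protons to make ATP. Most subunits are nuclear genes transcribed under factors such as NRF1, GABPA of the ETS family and YY1, and a few are encoded by mitochondrial DNA and were not analysed here. O-GlcNAc is a single sugar placed on nuclear and cytoplasmic proteins by OGT and removed by OGA, which the tables call MGEA5.

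HEK293T is an established line from human embryonic kidney that expresses the SV40 large T antigen. The labels describe cells given 10 µM OSMI-2, an OGT inhibitor, or 5 µM TMG, an OGA inhibitor, for 2 h or 6 h, and cells given the solvent DMSO for the same time. Each drug and time had DMSO libraries of its own, which makes 8 groups of 3 samples in the labels. The 11 libraries of the OSMI-2 experiment comprise DMSO 2 h (3), OSMI-2 2 h (3), DMSO 6 h (3) and OSMI-2 6 h (2); 1 further sample labelled OSMI-2 at 6 h was not used here. The 12 libraries of the TMG experiment comprise 3 in each of DMSO 2 h, TMG 2 h, DMSO 6 h and TMG 6 h. The libraries are called a, b and c within a group. Nothing in the labels says whether they came from separate cultures, so p-values measure only the spread between these libraries, which may be technical.

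Total counts per library ran from 39465746 to 100161560, and the OSMI-2 libraries were deeper than their DMSO controls. The members took 1.73% to 2.26% of a library's counts in the OSMI-2 experiment and 1.29% to 1.49% in the TMG experiment. Libraries differed in how level depended on base composition: the slope of log2 level on GC content per 10 percentage points was 0.37 to 1.10 in the OSMI-2 experiment and -0.58 to -0.28 in the TMG experiment. DMSO 6 h library a of the OSMI-2 experiment stood apart, with a slope of 0.37 against 0.78 or more in the other 10 libraries. Results are given beside GC content for this reason. All 5 HEK293T markers examined were listed, and they differed widely in CPM (counts of each library scaled to 1 common total). LIN28B was at 3.37 to 108 CPM, NEFL at 13.0 to 31.3 and PAX2 at 1.14 to 4.31. EYA1 was at 0.48 to 2.33 CPM and NEFM at 0.27 to 2.77, with as few as 15 counts of NEFM in a library. Of 5 markers of other cells, 2 were listed, GFAP with 0 to 18 counts and COL1A1 at 5.69 to 24.5 CPM. The range of COL1A1 lay above those of PAX2, EYA1 and NEFM.

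The promoters of 3 members that passed a drug comparison are shown first. They were picked because they share the letters bound by NRF1, and they do not stand for all members that passed. RefSeq promoters, the 300 bases from 250 before to 50 after each start on GRCh38.p14, were matched for 68 of the 85 members. On both strands, GCATGCG (NRF1), whose 2 overlapping copies form CGCATGCG, occurred in 16 of the 68 members (23.5%) and in 3.91% of all 35116 promoters. CCGGAAG (ETS family) occurred in 17 members (25%) and 10.3% of all promoters, and AAGATGG (YY1) in 17 members (25%) and 5.84% of all promoters. These are matches of letters, and binding was not measured. The 250 bases upstream of the start are printed with capitals for matches of these 3 motifs on either strand, first for ATP5G2 (ATP5MC2 in RefSeq, chr12:53676084-53676333, minus strand), then for COX6A1 (chr12:120437863-120438112, plus strand) and NDUFS7 (chr19:1383657-1383906, plus strand).
ATP5G2: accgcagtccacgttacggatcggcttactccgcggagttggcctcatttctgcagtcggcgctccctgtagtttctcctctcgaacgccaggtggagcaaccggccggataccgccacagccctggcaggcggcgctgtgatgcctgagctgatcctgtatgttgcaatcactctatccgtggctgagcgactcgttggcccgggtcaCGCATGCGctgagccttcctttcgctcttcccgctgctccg
COX6A1: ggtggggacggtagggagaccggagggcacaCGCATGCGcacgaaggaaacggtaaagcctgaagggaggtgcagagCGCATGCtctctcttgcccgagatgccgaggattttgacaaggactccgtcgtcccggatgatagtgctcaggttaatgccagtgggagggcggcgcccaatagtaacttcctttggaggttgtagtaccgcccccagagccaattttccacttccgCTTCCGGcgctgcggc
NDUFS7: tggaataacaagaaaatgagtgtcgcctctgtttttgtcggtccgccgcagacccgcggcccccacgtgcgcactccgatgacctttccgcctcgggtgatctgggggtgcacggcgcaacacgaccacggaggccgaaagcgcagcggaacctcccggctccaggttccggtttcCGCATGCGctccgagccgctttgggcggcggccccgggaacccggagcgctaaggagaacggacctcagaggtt
ATP5G2 and NDUFS7 each hold 1 palindromic NRF1 match, and COX6A1 holds a palindromic and a single NRF1 match with an ETS match nearer the start. NDUFS7 also holds a YY1 match 17 bases after the start, in the part of the 300-base window that is not printed. NDUFS8, NDUFAF3 and COX7A2L hold none of the 3 motifs in this window. Among other members that passed a drug comparison, NDUFA9 holds a YY1 match, and NDUFB7, COX4I1 and UQCR11+MBD3 hold ETS matches. SDHB, COX5B and NDUFB4, which passed no drug comparison, also hold NRF1 matches. Whether a motif goes with passing was not tested. ATP5D and NDUFA4 were not matched to the RefSeq table.

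Levels were compared between genes as CPM per kilobase of the gene's bins, and they spanned a wide range. The highest median over 23 libraries was that of UQCRQ, a small subunit of complex III, at 844 CPM per kilobase with a range of 630.2 to 2439. COX6A1+AL021546.6, a nuclear subunit of complex IV, followed at 611 (478 to 983), and ATP5B, the catalytic beta subunit of ATP synthase, at 602 (481 to 1174). The ranges of these 3 genes overlapped, so their order is not fixed by these libraries. By role, the median level was 228 CPM per kilobase for complex III, 213 for the membrane part of ATP synthase, 209 for F1 and 175 for complex IV. It was 97.4 for the complex I core, 90.8 for complex II and 89.6 for the supernumerary subunits of complex I, and 8.13 for its assembly factors. Among the assembly factors NDUFAF6 was lowest at 0.50, and NDUFAF3 was highest at 103, within the range of the core subunits of complex I. Per-kilobase levels depend on how much of a gene the tables hold: only 129 bases of COX7B, 245 of UQCR10, 265 of NDUFA9, 267 of the top-ranked UQCRQ and 325 of UQCRFS1 were listed, against 40685 of NDUFAF6.

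**Figure D1:**
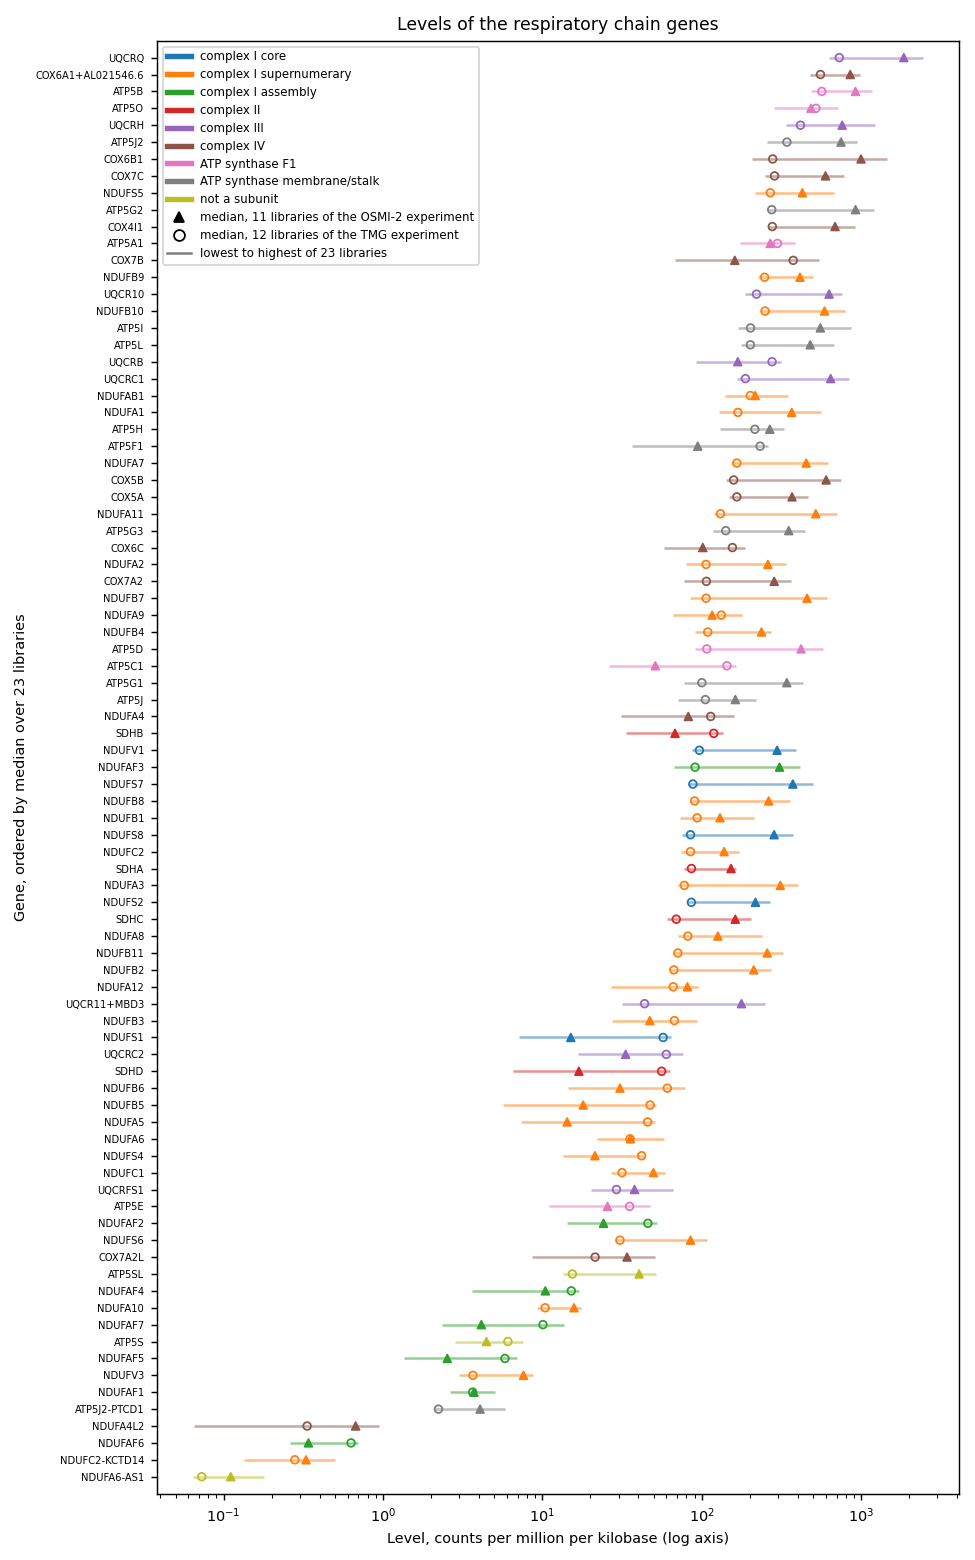
Level of each of the 85 genes in CPM per kilobase on a log axis, ordered by the median over 23 libraries, with triangles for the median of the OSMI-2 experiment, circles for the TMG experiment and lines from the lowest to the highest library. UQCRQ leads at a median of 844, NDUFA6-AS1 is last at 0.08, and most triangles lie to the right of the circles.

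Cells given only DMSO had different levels of these genes in the 2 experiments. At 2 h with DMSO, 40 of the 85 members were over 2-fold higher in the OSMI-2 experiment and 3 were over 2-fold lower, with a median log2 ratio of 0.93. Of 12358 genes with a mean count of at least 10 in these libraries, 2590 were over 2-fold higher and 3460 over 2-fold lower, with a median of -0.001. COX6B1, the subunit of complex IV that faces the intermembrane space, was at 1179.7 ± 202 CPM per kilobase (SD, n = 3) against 218 ± 13.5 (SD, n = 3) in the TMG experiment. NDUFB7, a membrane-arm subunit of complex I, was at 464 ± 139 against 102 ± 11.1 (SD, n = 3 each). SDHD, a membrane anchor of complex II, ran the other way, at 19.4 ± 3.63 against 51.4 ± 1.76 (SD, n = 3 each). Across the 85 genes the log2 ratio correlated with GC content with r = 0.65, as a description over genes that share the same libraries. What else differed between the experiments is not given in the sources used here, so drug effects were read within an experiment.

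Several members have sister genes for the same subunit, and the sisters differed in level. The 3 genes of the c subunit that forms the rotating ring of ATP synthase were at 357 ± 67.8 (ATP5G1), 856 ± 230 (ATP5G2) and 375 ± 31.5 (ATP5G3) CPM per kilobase with DMSO at 2 h in the OSMI-2 experiment (SD, n = 3 each). In the TMG experiment they were at 83.1 ± 10.4, 305 ± 21.4 and 122 ± 6.39 (SD, n = 3 each), again with ATP5G2 above both sisters. COX7A2, the ubiquitous isoform of a small complex IV subunit, was at 329 ± 38.5 and 86.0 ± 11.2 in these groups, against 40.9 ± 11.8 and 20.4 ± 1.21 for COX7A2L (SD, n = 3 each). NDUFA4L2, a relative of NDUFA4 induced by low oxygen in many cells, was at 0.65 ± 0.04 and 0.73 ± 0.10, against 113 ± 33.0 and 97.8 ± 4.11 for NDUFA4 (SD, n = 3 each). NDUFA4L2 had as few as 4 counts in a library, which limits what can be said of it.

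The first drug comparison asked what 2 h of OGT inhibition did to these genes. None of the 85 members changed with OSMI-2 at 2 h by edgeR's quasi-likelihood test with Benjamini-Hochberg adjustment over all 12320 genes, and 0% of all genes did. DESeq2 also called 0 members. UQCRFS1, the Rieske iron-sulfur protein of complex III, was the 1 member with an unadjusted p under 0.05, where 1.29% of all genes had one. Its CPM were 18.2, 18.5 and 11.3 with DMSO and 11.4, 10.2 and 8.89 with OSMI-2. The lowest DMSO library lay just under the highest OSMI-2 library, so the groups overlapped, and the log2 fold change was -0.66 ± 0.21 (SE). The median log2 fold change was -0.03 over the members and -0.01 over all genes. The OSMI-2 libraries lay above every control for 1 member, where 2.46% of all genes did, and below for 0, where 2.09% of all genes did. NDUFS1, the largest iron-sulfur subunit of complex I, read 51.4, 51.9 and 23.2 CPM with DMSO and 26.9, 42.6 and 23.1 CPM with OSMI-2. The library called c was the lowest in each group. The other core genes named in each comparison (NDUFV1, SDHA, SDHB, UQCRC1, COX4I1, COX5A, ATP5A1 and ATP5B) had log2 fold changes between -0.29 and 0.11.

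At 6 h with OSMI-2, 8 of the 85 members passed the test, 5 higher and 3 lower, where 4.87% of all 12486 genes passed (2.5% higher and 2.37% lower). The 5 that were higher were NDUFAF3, ATP5D, NDUFS8, ATP5G2 and NDUFS7, and the 3 that were lower were NDUFA4, COX7A2L and NDUFA9. The median member did not move with respect to all genes, at a log2 fold change of 0.14 against 0.15. The 8 calls depended on scaling and on single libraries. TMM factors from genes alone shift the median of all genes by -0.24. With them 5 members passed, all lower (COX6C, COX7A2L, NDUFA4, NDUFA9 and NDUFAF7), where 31 of all genes were higher and 472 lower. Median-of-ratios factors shift the median by 0.15. With them 5 members were higher and 1 lower, where 710 of all genes were higher and 236 lower. The count of members that passed was 31 (22 higher, 9 lower) without DMSO library a, where 42.4% of all genes passed, and 2 without DMSO library b, where 2.56% did. It was 0 without DMSO library c, where 1.05% of all genes passed, and 0 without either OSMI-2 library, where 0% did.

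NDUFA4 fell furthest. The gene (chr7:10971576-10979813, minus strand, hg19) read 184, 172.7 and 290.4 CPM with DMSO at 6 h and 82.6 and 59.8 CPM with OSMI-2. Both OSMI-2 libraries lay below every DMSO library. The log2 fold change was -1.60 ± 0.33 (SE) with an adjusted p of 0.00151 (edgeR). It kept its direction under every scaling tried, at -1.46 with median-of-ratios factors and -1.83 with TMM over genes alone, and after removal of a GC and length trend (-1.83).

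COX7A2L (chr2:42576476-42588988, minus strand, hg19) read 74.6, 106 and 124 CPM with DMSO and 69.1 and 22.96 CPM with OSMI-2. OSMI-2 library a was close to the lowest DMSO library and library b was far below it. The log2 fold change was -1.15 ± 0.32 (SE) with an adjusted p of 0.0235 (edgeR), and the adjusted p rose to 0.102 with the GC and length trend removed and to 0.0644 in DESeq2. NDUFA9, a subunit near the coenzyme Q site of complex I (chr12:4758265-4764007, plus strand, hg19), read 30.9, 38.8 and 51.9 CPM with DMSO and 21.3 and 16.8 CPM with OSMI-2. These counts come from only 265 listed bases of NDUFA9. Its groups did not overlap, and the log2 fold change was -1.09 ± 0.33 (SE) with an adjusted p of 0.0339 (edgeR). NDUFAF7, a methyltransferase that acts in complex I assembly, just missed the threshold at -1.15 with an adjusted p of 0.0506.

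Of the 5 genes that were higher, 3 act in the arm of complex I that carries electrons: NDUFS7 and NDUFS8 hold its last iron-sulfur clusters before coenzyme Q, and NDUFAF3 helps to assemble that region. NDUFAF3 (chr3:49059075-49060931, plus strand, hg19) read 140.2, 246 and 269.8 CPM with DMSO and 471 and 549 CPM with OSMI-2. NDUFS8 (chr11:67798085-67804114, plus strand, hg19) read 135, 260.4 and 276 CPM with DMSO and 455 and 527 CPM with OSMI-2. In both genes DMSO library a was lowest and the OSMI-2 libraries were clearly above all 3 controls. NDUFS7 (chr19:1383708-1395586, plus strand, hg19) read 124, 220.5 and 232 CPM with DMSO and 362 and 443 CPM with OSMI-2. The log2 fold changes were 1.22 ± 0.32, 1.13 ± 0.32 and 1.07 ± 0.32 (SE), with adjusted p values of 0.0152, 0.0258 and 0.0316 (edgeR).

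The other 2 belong to ATP synthase. ATP5D, the delta subunit in the central stalk (chr19:1241750-1244828, plus strand, hg19), read 113, 226 and 244 CPM with DMSO and 402 and 484 CPM with OSMI-2. ATP5G2, whose promoter is printed above (chr12:54058952-54070109, minus strand, hg19), read 377, 619 and 675 CPM with DMSO and 1079.6 and 1287 CPM with OSMI-2. Neither gene's groups overlapped, and library a was again the lowest control. The log2 fold changes were 1.19 ± 0.32 and 1.09 ± 0.35 (SE), with adjusted p values of 0.0189 and 0.0456 (edgeR). With TMM over genes alone the 5 genes kept a positive change of 0.84 to 0.99 but none passed. With the GC and length trend removed their changes shrank to 0.41 to 0.74 and all 5 passed. Far more genes passed there, 1464 higher and 1884 lower of all 12486, against 312 and 296 without removal of the trend. ATP5G2 also missed the threshold with median-of-ratios factors (adjusted p = 0.0511).

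**Figure D2:**
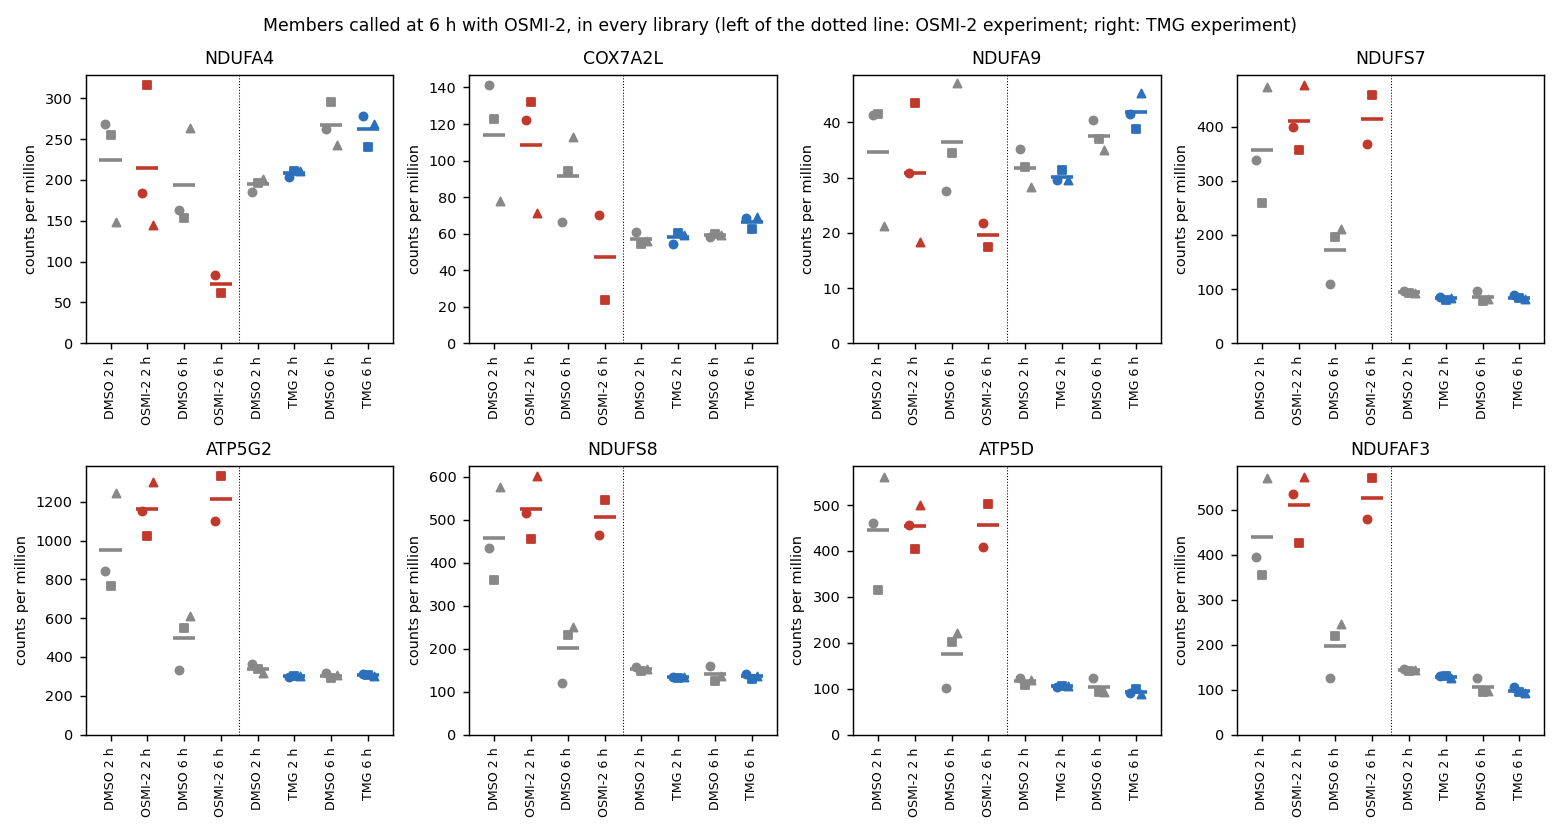
CPM relative to the plain library total of the 8 genes that passed with OSMI-2 at 6 h, in all 23 libraries, with circles, squares and triangles for libraries a, b and c and bars for group means. In the 5 genes that were higher, the OSMI-2 6 h libraries lie at the height of the 2 h libraries while DMSO 6 h lies lower, and in NDUFA4 the OSMI-2 6 h mean lies below those of all other groups.

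The plot of these 8 genes in every library shows 2 patterns. For ATP5D, NDUFS8, NDUFAF3, NDUFS7 and ATP5G2, the level with OSMI-2 at 6 h was like that at 2 h, and the DMSO 6 h libraries were low. From 2 h to 6 h with DMSO alone in the OSMI-2 experiment these genes fell by 1.29, 1.13, 1.10, 0.99 and 0.87 on the log2 scale, and all 5 passed that test, which uses the same DMSO 6 h libraries. For NDUFA4, COX7A2L and NDUFA9 the DMSO groups of the OSMI-2 experiment did not differ past the threshold between times, while in the TMG experiment NDUFA4 was higher at 6 h by 0.35.

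The members that passed also differed in base composition. The 5 that were higher have transcripts of 56.2% to 68.1% GC, and the 3 that were lower have 39.5% to 45.5%. Across all 85 members the log2 fold change at 6 h correlated with GC content with r = 0.67, a description over genes that share the same 5 libraries, one of which is DMSO library a with its low GC slope. The part of base composition in these changes was not tested beyond the trend correction above.

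No member of complex II or complex III passed. The core genes without a call were ATP5B (-0.39), ATP5A1 (-0.33), SDHB (-0.19), UQCRFS1 (-0.12), NDUFS1 (-0.08), SDHA (0.29), COX4I1 (0.35), COX5A (0.46), NDUFV1 (0.68) and UQCRC1 (0.68), given as log2 fold changes. Of the 85 members, 31 had both OSMI-2 libraries above all controls, where 32.1% of all genes did, and 11 had both below, where 15% of all genes did. In SDHA, the flavoprotein that oxidises succinate, CPM were 242, 320.5 and 359 with DMSO and 395 and 354 with OSMI-2, and the groups overlapped.

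**Figure D3:**
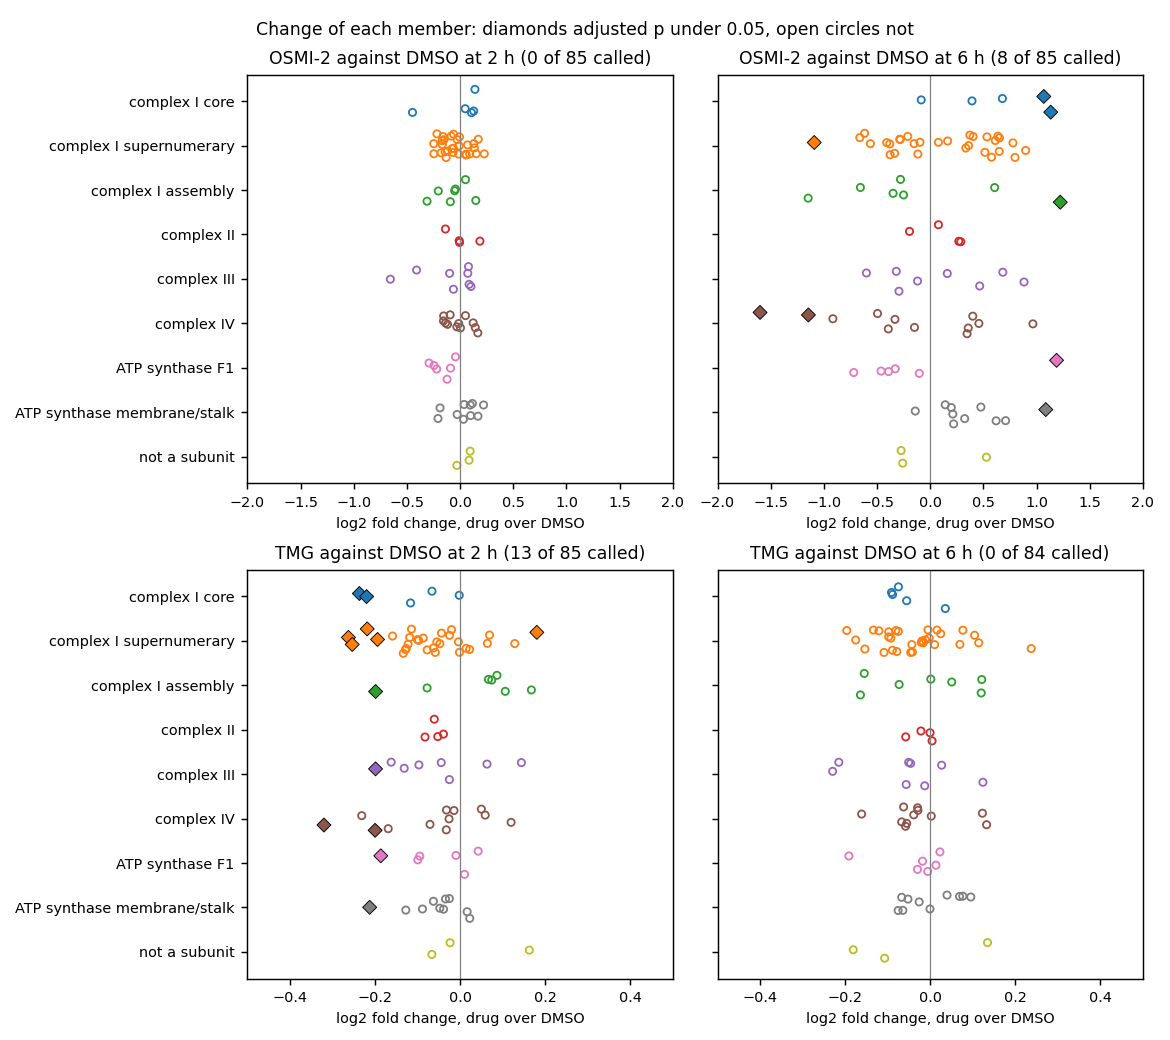
Log2 fold change of each member by role in the 4 drug comparisons, with filled diamonds for members with an adjusted p under 0.05 and open circles for the rest; the horizontal scale of the TMG panels is narrower. With OSMI-2 at 6 h the values run from -1.60 (NDUFA4) to 1.22 (NDUFAF3), and with TMG at 2 h from -0.32 (COX6A1+AL021546.6) to 0.18 (NDUFB6).

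TMG at 2 h, which raises O-GlcNAc by blocking its removal, moved 13 of the 85 members by small amounts. Of these, 12 were lower and 1 was higher, where 7.91% of all 12365 genes passed (1.25% higher and 6.66% lower). The median log2 fold change was -0.05 over the members and -0.03 over all genes. The 12 lower genes comprised 4 supernumerary subunits of complex I (NDUFB7, NDUFA11, NDUFB5 and NDUFB9), NDUFS7 and NDUFS8 of its core, NDUFAF3, UQCR11+MBD3, COX6A1+AL021546.6, COX4I1, ATP5D and ATP5G2. No gene of complex II passed. The standard errors of the 13 changes were 0.05 to 0.07 on the log2 scale, against 0.32 to 0.35 for the 8 members that passed with OSMI-2 at 6 h.

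COX6A1+AL021546.6 fell most. It read 339, 273 and 249 CPM with DMSO and 236, 227 and 227 CPM with TMG. All TMG libraries were below the controls, of which library a was the highest. The log2 fold change was -0.32 ± 0.07 (SE) with an adjusted p of 0.00555 (edgeR), and -0.24 with the GC and length trend removed, where it still passed. DESeq2 gave it an adjusted p of 0.112.

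NDUFS8 read 181, 169 and 174 CPM with DMSO and 151, 146 and 147 CPM with TMG. NDUFS7 read 111, 106 and 105 CPM with DMSO and 96.2, 88.6 and 91.7 CPM with TMG. Neither overlapped, and the log2 fold changes were -0.24 ± 0.05 and -0.22 ± 0.05 (SE) with adjusted p values of 0.00415 and 0.00913 (edgeR). With the GC and length trend removed NDUFS8 was at -0.08 and no longer passed.

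NDUFB5, a membrane-arm subunit of complex I with only 39.7% GC, read 61.3, 56.5 and 56.6 CPM with DMSO and 49.5, 49.9 and 50.5 CPM with TMG. NDUFB7 read 50.3, 41.3 and 40.5 CPM with DMSO and 38.997, 36.1 and 34.99 CPM with TMG. Their groups did not overlap, and the log2 fold changes were -0.22 and -0.26 with adjusted p values of 0.0144 and 0.0202 (edgeR). COX4I1, the ubiquitous isoform of a complex IV subunit, read 497, 434 and 419 CPM with DMSO and 400.3, 388 and 387 CPM with TMG. ATP5G2 read 423, 383 and 359 CPM with DMSO and 338, 335 and 332 CPM with TMG. Both were lower in every TMG library, by -0.20 and -0.21 on the log2 scale with adjusted p values of 0.0271 and 0.0168 (edgeR). UQCR11+MBD3 read 145, 146 and 143 CPM with DMSO and 132, 123 and 123 CPM with TMG (-0.20, adjusted p = 0.0133, edgeR), and since MBD3 is a chromatin protein, the part of the complex III gene in this fall is not known. NDUFA11 passed at -0.25 although the groups touched, with a lowest control of 172.7 CPM and a highest TMG library of 173.0 CPM.

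The single rise was in NDUFB6, another membrane-arm subunit of complex I. It read 68.2, 71.4 and 72.8 CPM with DMSO and 81.0, 82.1 and 77.7 CPM with TMG. Every TMG library was above every control, and the log2 fold change was 0.18 ± 0.05 (SE) with an adjusted p of 0.0325 (edgeR). Its transcripts have 41.7% GC.

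GC content moved with the TMG result in the opposite sense to that of OSMI-2. Across the 85 members the log2 fold change at 2 h with TMG correlated with GC content with r = -0.61, as a description, and 4 members passed with the trend removed: COX6A1+AL021546.6, NDUFB5, NDUFB9 and, higher, NDUFA3. All 5 members that were higher with OSMI-2 at 6 h (ATP5D, ATP5G2, NDUFAF3, NDUFS7 and NDUFS8) were among the 12 lower with TMG at 2 h, 100% of the first list and 41.7% of the second. Over all genes, 57 of the 312 higher with OSMI-2 at 6 h (18.3%) were among the 824 lower with TMG at 2 h (6.92%). The 2 comparisons share no library. None of these 5 members is among the 4 that passed with TMG at 2 h with the trend removed. The part of base composition in this overlap was not tested. The count with TMG was 2 without TMG library b or without TMG library c, where 1.957% and 2.31% of all genes passed. It was 9 to 14 when any of the other 4 libraries was left out, where 5.22% to 9.76% of all genes passed. With all libraries, 21 members had every TMG library below every control, where 18.8% of all genes did, and 6 had every one above, where 8.13% did.

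**Figure D4:**
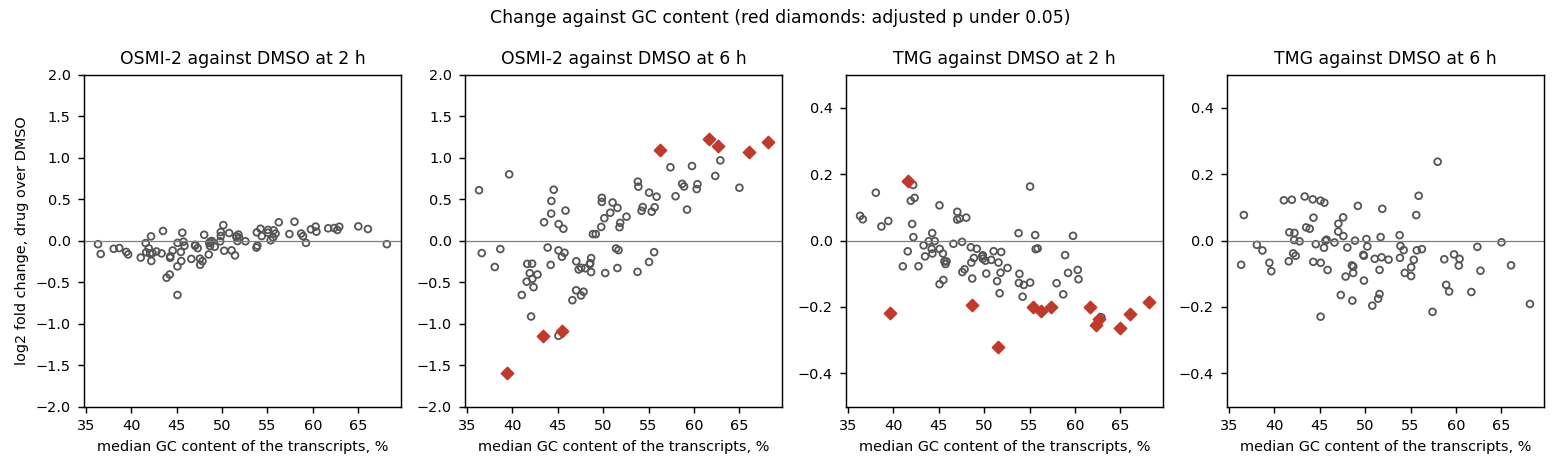
Log2 fold change of each member against the median GC content of its transcripts in the 4 drug comparisons, with red diamonds for adjusted p under 0.05. Members rise with GC content with OSMI-2 at 6 h (r = 0.67) and fall with TMG at 2 h (r = -0.61).

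After 6 h of TMG, 0 of 84 members tested passed by edgeR's quasi-likelihood test, where 6.1% of all 12090 genes did (1.2% higher and 4.9% lower). At an unadjusted p under 0.05 there were 6 members, where 22.5% of all genes had one, and DESeq2 also called 0. NDUFA4L2 was too low to be tested. All changes lay between -0.23 (UQCRFS1) and 0.24 (NDUFC2-KCTD14), with a median of -0.03 over the members and -0.03 over all genes. COX6A1+AL021546.6 read 312, 279.9 and 255 CPM with DMSO and 263, 244 and 250.6 CPM with TMG. The groups overlapped, and the change was -0.16 ± 0.07 (SE) with an adjusted p of 0.166 (edgeR). NDUFS8 read 179.6, 132 and 144 CPM with DMSO and 149, 138 and 142 CPM with TMG, inside the spread of its controls. Control library a was the highest for both genes. Without it 4 members passed, all higher, where 10.3% of all genes passed. With all libraries, 4 members had every TMG library above every control, where 10.1% of all genes did, and 2 had every one below, where 17.7% of all genes did.

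The DMSO libraries allow a comparison of 6 h with 2 h in cells without a drug, which answers how much the members moved with time in culture or handling. In the OSMI-2 experiment, 38 of the 85 members passed, 1 higher and 37 lower, where 18.5% of all genes passed (4.62% higher and 13.9% lower). The median log2 change was -0.71 over the members, -0.25 over all genes, -1.03 over 74 cytosolic ribosomal protein genes tested and -0.79 over 69 mitochondrial ribosomal protein genes. With TMM over genes alone, which shifts the median of all genes by 0.29, 6 members passed (1 higher and 5 lower), where 6.81% of all genes were higher and 2.38% lower, and 54 members passed without DMSO 6 h library a, where 37.0% of all genes did. The 6 h libraries lay below every 2 h library for 52 members, where 29.1% of all genes did, and above for 1, where 10.6% did.

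NDUFB5, chosen after its values were seen, fell furthest. It read 33.1, 25.3 and 17.7 CPM at 2 h and 8.98, 6.21 and 7.22 CPM at 6 h. The groups were well apart, and the log2 change was -1.76 ± 0.29 (SE) with an adjusted p of 0.00018 (edgeR). In the TMG experiment NDUFB5 changed by -0.06 with an adjusted p of 0.507 (edgeR), and its groups overlapped. Among the core genes named in each comparison, COX5A (-0.996), UQCRFS1 (-0.87), COX4I1 (-0.83) and SDHB (-0.78) passed in the OSMI-2 experiment. COX5A read 604, 552 and 473 CPM at 2 h and 194, 287 and 336 CPM at 6 h, without overlap. ATP5B, at -0.34, overlapped between times and did not pass. The 1 entry that was higher was NDUFA6-AS1, an antisense RNA at 2.94 to 4.15 CPM at 2 h and 5.98 to 7.66 CPM at 6 h.

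In the TMG experiment, 36 of the 85 members passed, 25 higher and 11 lower, where 45.9% of all genes passed (16.3% higher and 29.6% lower). With TMM over genes alone the split was 36 higher and 8 lower, and that of all genes was 2913 and 2918. The 6 h libraries lay above every 2 h library for 27 members, where 20.2% of all genes did, and below for 11, where 33.2% did. The median was 0.04 over the members and -0.07 over all genes. NDUFB3, a membrane-arm subunit of complex I, read 43.3, 47.2 and 49.4 CPM at 2 h and 73.1, 80.3 and 71.3 CPM at 6 h, a log2 change of 0.68 ± 0.08 (SE) with an adjusted p of 1.78e-07 (edgeR). COX6B1 read 158, 144 and 136 CPM at 2 h and 239, 198 and 198 CPM at 6 h, a change of 0.54 ± 0.08 (SE) with an adjusted p of 8.04e-06 (edgeR). Both, and NDUFA4L2 below, were chosen after their values were seen. In the OSMI-2 experiment NDUFB3 had a change of -0.58 that did not pass and COX6B1 fell by 0.80. The largest change of any member was that of NDUFA4L2, at 0.783, 0.802 and 0.969 CPM at 2 h and 0.231, 0.176 and 0.136 CPM at 6 h, from 6 to 45 counts per library. Its log2 change was -2.21 ± 0.32 (SE) with an adjusted p of 6.71e-06 (edgeR). In the OSMI-2 experiment, from 4 to 26 counts per library, it fell by 1.45 with an adjusted p of 0.0239 (edgeR). UQCRFS1 was the 1 core gene that passed, falling by 0.60, and it had also fallen in the OSMI-2 experiment. The difference between the experiments' time changes was not tested.

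The effects of the drugs were then compared in 1 fit per time, as the OSMI-2 change minus the TMG change. At 2 h, 0 of 85 members differed by edgeR's quasi-likelihood test (0% of all genes), with 7 members at an unadjusted p under 0.05, where 8.15% of all genes had one, and 0 called by DESeq2. At 6 h, 17 members differed, 14 with a higher and 3 with a lower OSMI-2 effect, where 19.9% of all genes did (16.9% higher and 2.98% lower). NDUFA4 changed by -1.60 with OSMI-2 and by -0.07 with TMG, and ATP5D by 1.19 and -0.19. With TMM over genes alone the split was 6 higher and 6 lower (8.23% of all genes differed), and with median-of-ratios factors it was 40 higher and 1 lower (43.1% of all genes).

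A detained intron remains in an otherwise finished, polyadenylated RNA, which is then held back from the cytoplasm, and the tables mark some bins as such. Of the 85 members, 10 (11.8%) have a detained intron, against 3150 genes (23.8%) of the whole series, and they hold 13 of the 4769 marked bins. These lie in NDUFS1 and NDUFV1 of the complex I core, NDUFA10, the assembly factors NDUFAF5, NDUFAF6 and NDUFAF7, SDHA, UQCRC1, UQCRC2 and ATP5O, and none lies in a complex IV gene of the list. The build of the deposited coordinates is hg19, and no sequence of that build was used here.

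With OSMI-2 at 6 h all 13 bins were lower by edgeR, where 86.9% of all 4684 tested bins passed (86.4% lower and 0.555% higher), a share close to that of the members. The log2 fold changes ran from -0.80 to -2.36 with a median of -1.48, and the median of all bins was -1.55. Relative to the counts of the gene's other bins, 11 of 13 fell by limma's moderated test, where 89.2% of all bins passed (89% lower). In the authors' deposited table of bin usage, 10 of the 13 were lower.

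UQCRC2 encodes a core protein of complex III, and its intron bin 017 (chr16:21990573-21991867, hg19) had counts equal to 4.74%, 5.45% and 2.75% of the gene's with DMSO at 6 h and 1.88% and 1.77% with OSMI-2. At 2 h the shares were 0.72%, 1.13% and 1.75% with DMSO and 1.03%, 0.88% and 1.86% with OSMI-2. The DMSO 6 h libraries were the high ones, and OSMI-2 6 h lay at or just above the 2 h range. The intron changed by -1.47 ± 0.29 (SE), with an adjusted p of 1.98e-06 (edgeR).

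ATP5O, which links the head of ATP synthase to its peripheral stalk, had the largest fall, in intron bin 004 (chr21:35276326-35279633, hg19). The shares were 2.15%, 2.21% and 1.29% with DMSO at 6 h and 0.58% and 0.58% with OSMI-2, and 0.39% to 0.49% with DMSO at 2 h. The change was -2.36 ± 0.31 (SE), with an adjusted p of 1.71e-12 (edgeR). NDUFV1, the NADH-binding subunit of complex I, has a short detained intron of 424 bases in bin 006 (chr11:67378042-67378465, hg19). Its shares were 2.44%, 1.45% and 1.29% with DMSO at 6 h and 0.37% and 0.49% with OSMI-2, and the change was -1.22 ± 0.28 (SE). In both genes each OSMI-2 library was below every DMSO 6 h library.

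In percentage points of the gene's counts, the falls were large in 2 assembly factors. In NDUFAF6 bin 007 held 11.1%, 13.1% and 9.12% with DMSO at 6 h and 2.31% and 2.93% with OSMI-2, and in NDUFAF5 bin 013 held 10.5%, 17.7% and 8.33% against 1.94% and 5.54%. The changes were -2.29 and -2.20, with adjusted p values of 5.20e-08 and 8.94e-07 (edgeR). NDUFAF6 bin 019 changed by -2.20 and NDUFA10 bin 003 by -1.79. The 2 bins without a fall relative to their gene were ATP5O bin 003, a 13-base bin that also carries another class of event and held 11.02% to 12.5% of the gene's counts in the 6 h libraries, and NDUFAF7 bin 007 (-0.39, adjusted p = 0.238, limma). The other bins of NDUFAF7 had a log2 fold change of -1.15 that just missed the threshold.

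**Figure D5:**
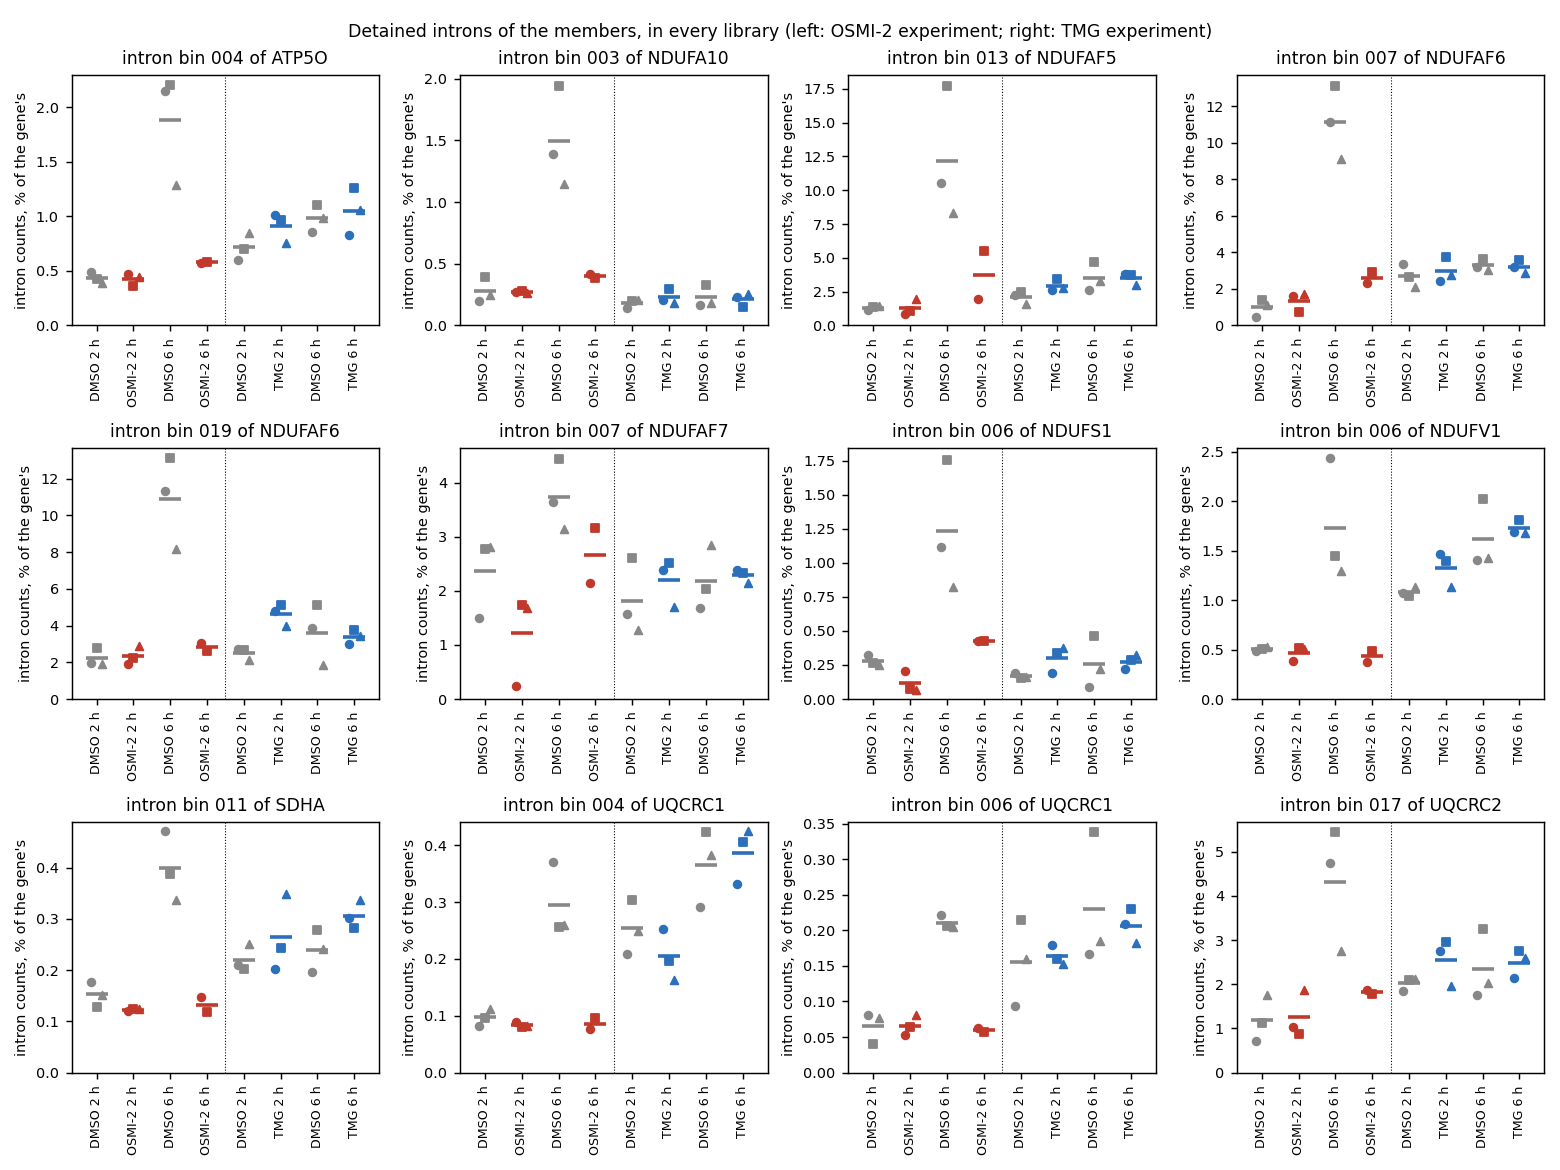
Counts of 12 detained introns as a percentage of the counts of the gene's other bins, in all 23 libraries, with bars for group means; grey is DMSO, red OSMI-2 and blue TMG. The DMSO 6 h libraries of the OSMI-2 experiment stand above the rest of that experiment in most panels, and TMG 2 h stands above its control in bin 019 of NDUFAF6.

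Introns were tested between drug and DMSO only, not between times. With DMSO at 2 h in the OSMI-2 experiment, all detained introns together took 0.24% to 0.28% of a library's counts. At 6 h they took 0.76% to 1.21%. With DMSO in the TMG experiment the shares were 0.38% to 0.44% at 2 h and 0.46% to 0.67% at 6 h. In the drug comparisons other than OSMI-2 at 6 h, the introns of the members moved less. With OSMI-2 at 2 h, 0 of 9 bins tested passed by edgeR (0.131% of all bins) or relative to the gene by limma (0.0643%), with 0 at an unadjusted p under 0.05 in either test, where 2.96% and 4.50% of all bins had one. With TMG at 2 h, 5 of 13 bins had an unadjusted p under 0.05 by edgeR, where 27.9% of all bins had one. After adjustment 1 of 13 was higher by edgeR, where 9.87% of all bins passed (9.75% higher and 0.123% lower). That was bin 019 of NDUFAF6, with shares of 2.72%, 2.69% and 2.11% with DMSO and 4.82%, 5.14% and 3.99% with TMG, without overlap. Its log2 fold change was 0.97 ± 0.20 (SE) with an adjusted p of 0.0028 (edgeR). Relative to the gene it was 0.87 with an adjusted p of 0.0737 in limma, where 0 of 13 bins passed, 3 had an unadjusted p under 0.05 (25.5% of all bins) and 0.124% of all bins passed, whereas the authors' deposited table has it at 0.85 with an adjusted p of 0.00227. The median of the 13 bins was 0.31 and that of all bins 0.29. With TMG at 6 h, 0 of 13 passed by edgeR (0.191% of all bins, 0.167% higher and 0.0239% lower) or limma (0.0957%, 0.0718% higher and 0.0239% lower), with 0 at an unadjusted p under 0.05, where 7.81% and 5.14% of all bins had one.

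Other genes that serve the respiratory chain were read from lists chosen with the members. With OSMI-2 at 2 h no gene of these lists passed. With OSMI-2 at 6 h, 4.87% of all genes passed. Among 30 further assembly genes, 1 was higher (ECSIT, a complex I assembly factor, 1.01). Another 2 were lower (COX18, which inserts a complex IV subunit into the membrane, -1.64, and COA1, -1.35). Of 12 citric acid cycle genes, 2 were higher (FH, 1.02, and SUCLG2, 1.13) and 1 was lower (SUCLG1, the shared subunit of succinyl-CoA ligase, -1.18). Of 13 coenzyme Q genes, 1 was lower (COQ5, -1.13), and of 3 ATP synthase genes with other symbols, 1 was lower (USMG5, -1.13). Neither CYC1 nor CYCS, which encode cytochromes c1 and c, passed, and 0 of 16 nuclear regulators did by edgeR. OGT and MGEA5 themselves were both lower, by -1.85 and -1.93. All values are log2 fold changes.

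With TMG, the lists moved by less. At 2 h, where 7.91% of all genes passed, the complex IV assembly factor SURF1 was lower (-0.28), among 30 assembly genes. GABPA, among 16 nuclear regulators, was higher (0.27), as was USMG5 (0.21), among 3 ATP synthase genes with other symbols. At 6 h 6.1% of all genes passed. Among 16 nuclear regulators, GABPA (0.43) and its partner GABPB1 (0.41) were higher. ESRRA, a nuclear receptor that drives mitochondrial genes, was lower (-0.34). Whether these regulators act on the members was not tested. COX18 (-0.48) and COA3 (-0.31), among 30 assembly genes, were also lower. So were COQ5 (-0.29) and ADCK4 (-0.42), among 13 coenzyme Q genes, and CYCS (0.22) was higher. MGEA5 was higher (0.72) and OGT lower (-0.48) at that time. These genes passed the same edgeR test with adjustment over all genes.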

How the data were processed

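RNA with poly(A) tails from HEK293T cells was sequenced with a stranded TruSeq kit, per the labels' protocols. STAR and hg19 are named in the submitters' processing notes, without versions. The counter, annotation and use of strand are not given in the sources used here, so overlapping and antisense genes are uncertain. The authors deposited, for each drug and time, raw read counts per bin of each gene with their own log2 fold changes and adjusted p-values of bin usage, per the file headers. A read that touches several bins may be counted in each.

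A gene's count is the sum of its bins that no transcript name marks as a detained intron, and detained introns were kept apart. All 23 count columns were used. Genes and introns were tested with edgeR 4.0.16 (R 4.3.3) by the quasi-likelihood test, with TMM factors computed from genes and introns in 1 table, low counts filtered by filterByExpr, and Benjamini-Hochberg adjustment over all features at 0.05. Standard errors are the log2 fold change divided by the root of F. CPM printed beside a test use that comparison's scaling, so a control's value differs slightly between comparisons. The intron's count relative to its gene was tested with limma 3.58.1 on log2((intron + 1)/(gene + 1)) for mean counts of at least 10. DESeq2 1.42.0, other scalings, no filter, other sets of bins, 1 fit of all libraries, removal of a trend with GC content and length, and leaving out each library were alternatives. GC content is the median of a gene's transcripts in GENCODE 29 and was found for 96.4% of genes and all 85 members. The fits were tested on simulated data.

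The members and lists were chosen with earlier results of these data known. In the drug comparisons, the genes named are those past the threshold whose treated libraries all lie beyond every control, up to 8 in each direction, with 10 core subunits in every comparison. Named introns are up to 5 past the threshold in each direction and the 3 with the highest mean count. For other lists, up to 3 genes per direction are named, and further names were chosen after their values were seen. A result for 1 gene of these lists is not reported here.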

Additional observations from a re-analysis of the deposited data

Results flagged for a closer look

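At 6 h the effects of the drugs differed for 17 members, tested as the OSMI-2 effect minus the TMG effect in edgeR's quasi-likelihood test with adjustment over all genes, of which 19.9% differed, so the members' count is near that of all genes. On the log2 scale the difference was negative for NDUFA4 (-1.38), NDUFAF7 (-1.10) and NDUFA9 (-1.05). It was positive for complex I genes of the core, NDUFS8 (1.38), NDUFS7 (1.30) and NDUFV1 (0.89), and for the assembly factor NDUFAF3 (1.53). Supernumerary complex I genes with a positive difference were NDUFA3 (1.09), NDUFB5 (1.05), NDUFA11 (0.95), NDUFB11 (0.94) and NDUFS6 (0.82). In ATP synthase it was positive for ATP5D (1.53), ATP5G2 (1.27), ATP5G1 (0.92) and the readthrough ATP5J2-PTCD1 (0.85), and in complex III for UQCR11+MBD3 (1.25). The median difference was 0.27 over the members and 0.36 over all genes. Without OSMI-2 6 h library b, 0 members differed by edgeR (0.174% of all genes), and without DMSO 6 h library a of the OSMI-2 experiment 60 did (74.9% of all genes).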

How the results depend on the processing

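Counts of members that passed moved by over 1.5 times as follows, with the share of all genes or introns that passed in parentheses. With OSMI-2 at 6 h the 8 became 5 with TMM over genes alone (4.03%), 46 in 1 fit of all libraries (47.1%) and 31 with the GC and length trend removed (26.8%), and 0 to 31 with 1 library left out. With TMG at 2 h the 13 became 0 in 1 fit of all libraries (0%) and 4 with the trend removed (4.28%), and 2 to 14 with 1 library left out, and TMM over genes alone gave 2 higher and 9 lower (2.00% and 4.21%). With TMG at 6 h the 0 became 6 with the trend removed (15.4%), and 0 to 4 with 1 library left out (0.73% to 10.3%). DMSO over time gave 6 with TMM over genes alone (9.19%) and 74 in 1 fit of all libraries (48.4%) in the OSMI-2 experiment, and 6 to 54 with 1 library left out, where the least came without DMSO 2 h library a (4.16%). In the TMG experiment it gave 11 in 1 fit (14.4%), and 28 to 45 with 1 library left out (36.2% to 55.0%). The drug difference at 6 h gave 41 with median-of-ratios factors (43.1%), 34 in 1 fit (31.8%) and 35 with the trend removed (34.1%). It gave 60 without DMSO 6 h library a of the OSMI-2 experiment (74.9%). The drug difference at 2 h gave 0 to 3 with 1 library left out (0% to 2.21%).

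TMM over introns alone centres the introns on each other, which with OSMI-2 at 6 h moved the median of all introns from -1.55 to -0.08. The values then give each intron relative to the others: the 13 lower introns became 1 (16.2% of all introns passed, and 10 to 13 of the 13 with 1 library left out under the first scaling), and 6 took a positive sign by this construction: ATP5O bin 003 (0.64), UQCRC1 bins 004 (0.45) and 006 (0.33), NDUFV1 bin 006 (0.25), SDHA bin 011 (0.19) and UQCRC2 bin 017 (0.034). The count relative to the gene stayed at 11 with each library left out. With TMG at 2 h the 1 intron became 2 with TMM over introns alone (1.75%) and 0 in 1 fit of all libraries (0.0637%), and 1 to 3 with 1 library left out, with 3 without TMG library c, and relative to the gene the 0 became 1 with a pseudocount of 5 (1.24%), 1 with a mean count of at least 50 (16.1%) and 1 in the authors' deposited test (3.77%), and 0 to 0 with 1 library left out. With TMG at 6 h it was 0 to 1. Of the values of single named genes and introns under the alternatives, 652 kept their direction and side of the threshold, 81 lost the threshold, 8 gained it and 25 moved. Leaving out either OSMI-2 6 h library leaves 1 treated library, assumed to vary like the others. No paired analysis was run, because the columns carry letters that match no replicate number in the labels. Whether a letter links libraries of different groups is not stated.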
